A study of Mus musculus with 2 samples.

Results

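The genes described here encode the machinery of DNA replication and mitosis, and they were followed in mouse peritoneal macrophages on 2 Affymetrix arrays. The list named 56 genes in 6 roles and was chosen with earlier results of these data known. It was then taken as given: every probe set that the platform annotation assigns to exactly 1 gene was used if that gene was on the list. This gave 126 probe sets for 55 of the 56 genes, out of 18193 genes named on the array. Ccnb1 had no such probe set and is not analysed here.

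One array was hybridised with macrophage RNA of untreated C57BL/6J mice and is called resident. For the other, called elicited, C57BL/6J mice had received 1 mL of 3% thioglycollate (a sterile irritant broth) into the peritoneum, and macrophages were taken 3 days later. Mice of both groups were 8 weeks old. Per the labels, cells of both groups adhered to plastic for 2 h and were then washed and scraped, whereas the series text speaks of culture overnight, so the time in culture is uncertain. There was 1 array per group, and the labels do not say how many mice contributed to each RNA. No value therefore carries a replicate error and no difference between the groups was tested.

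A cell that enters the cycle first assembles D cyclins with CDK4 and CDK6, which inactivate the retinoblastoma protein and free E2F factors to switch on genes of DNA synthesis. Later, cyclins A and B with CDK1 drive entry into mitosis, when a second wave of genes for the spindle, the kinetochore and the checkpoint is expressed. CDK inhibitors such as p21 and p27 restrain these kinases. Most tissue macrophages are quiescent at any time, yet resident peritoneal macrophages renew themselves by local division at a low rate, while macrophages of an inflamed cavity derive largely from recruited monocytes.

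The promoters of many of these genes carry short motifs known from cell cycle control. Some stretches that hold E2F or cell cycle homology region letters are shown as examples. Other stretches, such as those of the higher members Pcna, Tk1 and Birc5, hold neither and are not shown. E2F letters were searched as TTTCCCGC, TTTGGCGC, TTTCGCGC and TTTGCCGC, the cell cycle homology region (CHR) as TTTGAA, and the CCAAT box as CCAAT, each on both strands. Matches to the E2F letters on opposite strands can overlap each other. The stretches below are the 150 bases before the transcription start in RefSeq on GRCm38.p6, 5′ to 3′ on the gene's strand. Every match that lies wholly within a stretch is in capitals. Mcm5 (chr8:75109359-75109508, plus strand) and Mcm6 (chr1:128359706-128359855, minus strand) show E2F letters, Cdk1 (chr10:69352913-69353062, minus strand) shows E2F and CHR letters, and the others show CHR letters. Those are Cdc20 (chr4:118437344-118437493, minus strand), Ube2c (chr2:164769779-164769928, plus strand), Cks1b (chr3:89418292-89418441, minus strand) and Mki67 (chr7:135716380-135716529, minus strand).
Mcm5: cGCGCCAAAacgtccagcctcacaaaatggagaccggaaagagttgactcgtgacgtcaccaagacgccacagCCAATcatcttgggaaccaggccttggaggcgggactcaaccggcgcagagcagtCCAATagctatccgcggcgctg
Mcm6: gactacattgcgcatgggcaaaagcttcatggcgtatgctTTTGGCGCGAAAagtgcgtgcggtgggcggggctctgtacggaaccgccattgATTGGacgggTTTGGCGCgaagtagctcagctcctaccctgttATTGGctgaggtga
Cdk1: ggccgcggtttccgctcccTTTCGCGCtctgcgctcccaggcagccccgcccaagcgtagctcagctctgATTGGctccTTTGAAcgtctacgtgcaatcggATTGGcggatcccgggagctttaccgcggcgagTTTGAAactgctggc
Cdc20: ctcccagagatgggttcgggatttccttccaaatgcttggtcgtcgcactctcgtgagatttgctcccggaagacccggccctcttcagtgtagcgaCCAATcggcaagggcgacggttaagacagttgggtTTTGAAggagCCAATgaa
Ube2c: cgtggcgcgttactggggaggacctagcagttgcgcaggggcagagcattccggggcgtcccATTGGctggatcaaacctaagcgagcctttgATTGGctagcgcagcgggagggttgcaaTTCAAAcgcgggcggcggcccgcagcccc
Cks1b: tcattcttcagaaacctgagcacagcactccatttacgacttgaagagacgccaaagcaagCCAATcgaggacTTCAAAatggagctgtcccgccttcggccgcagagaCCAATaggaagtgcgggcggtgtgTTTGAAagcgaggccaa
Mki67: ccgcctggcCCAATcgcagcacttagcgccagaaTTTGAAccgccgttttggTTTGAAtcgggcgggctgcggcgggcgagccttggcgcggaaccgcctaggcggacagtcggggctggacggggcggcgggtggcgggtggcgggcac

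Over the whole window of 300 bases (250 before to 50 after the start), 46 of the 56 listed genes had an entry, with 53 starts. E2F letters were in 9 of 20 starts of the replication genes (45.0%) and in 0 of 14 starts of the mitotic genes, against 2.26% of all 32851 mouse promoters. CHR letters were in 11 of 14 starts of the mitotic genes (78.6%) and in 1 of 20 starts of the replication genes, against 17.9% of all promoters. The CCAAT box was in 12 of 14 mitotic and 14 of 20 replication starts, against 37.4% of all promoters. By call, E2F letters were in 4 of 20 starts of the higher members and in 8 of 26 starts of members within 2-fold. CHR letters were in 9 of 20 and 6 of 26 of these starts. A match describes the letters in this window and shows no binding.

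**Figure D1:**
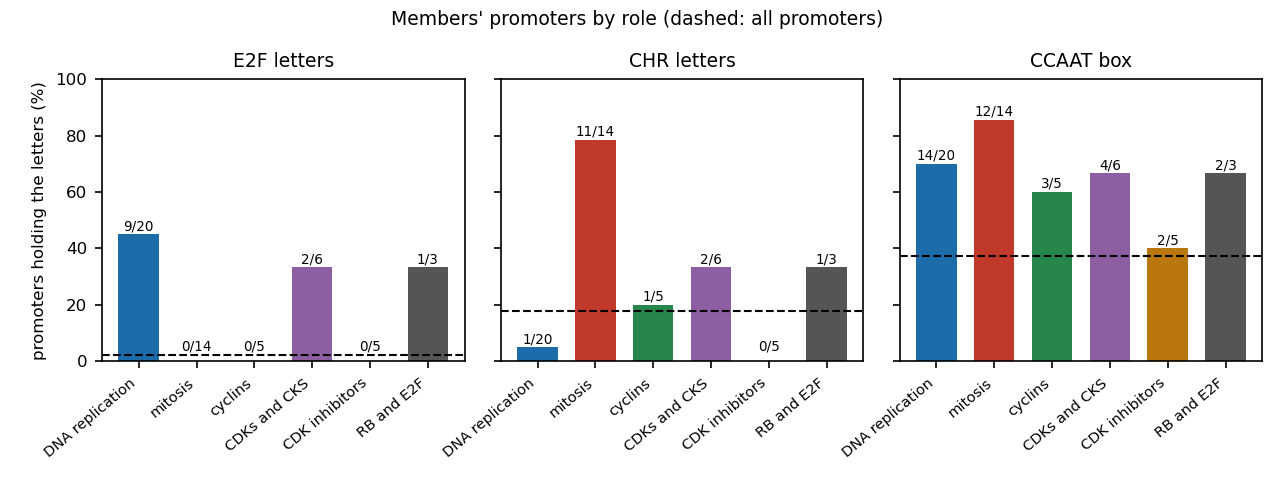
Share of members' promoters (percent of starts, y axis) that hold E2F letters, CHR letters or a CCAAT box, for each role (x axis), with the number of starts above each bar; the dashed line is the share of all promoters. E2F letters stand at 9 of 20 replication starts and CHR letters at 11 of 14 mitotic starts.

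Values are MAS5 signal intensities as deposited, linear and scaled to a common mean, compared as the log2 ratio of elicited over resident signal. A background floor was set at a signal of 82.2, the 95th percentile of signals of gene families silent in leukocytes, such as odorant receptors. Signals below the floor were raised to it, so a ratio that involves a raised signal is a bound, written as at least N-fold. A gene with several probe sets is given by the one of highest mean log2 signal. A difference of 2-fold or more is counted as higher or lower. The spread between probe sets of 1 gene had an SD of 0.48 on the log2 scale (1.40-fold), which covers differences between probes and not between animals. Levels of different genes are not comparable on this scale, because probe sets differ in response.

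Of the 55 genes, 53 exceeded the floor on either array and 44 did so on both arrays. Tyms, thymidylate synthase, and Ung, a uracil-DNA glycosylase, were not above it on either. Of the 53, 21 (39.6%) were higher by 2-fold or more in elicited cells and 3 (5.66%) were lower by that much. For all 11499 genes that exceeded the floor, the background shares were 8.04% higher and 11.8% lower. Among the 4676 genes within the members' interquartile range of mean signal (152 to 904), these shares came to 7.57% higher and 15.9% lower. The median log2 ratio was 0.73 over the 53 members and -0.03 over all genes. The ratio was above 0 for 43 of the 53 members (81.1%), against 48.1% of all genes. Members above the floor on the elicited array alone are among the 43 and could only read higher. Of the 44 members above it on both arrays, 17 were at least 2-fold higher and 3 lower, with a median of 0.74. For the 9820 such genes on the array, 742 were higher and 1089 lower, with a median of -0.02. Nearest to the threshold lay Mcm5 (2.05-fold) and Gins2 (2.07-fold) above it, and Nusap1 (1.89-fold) and Cenpa (1.88-fold) below it. Of the 29 members counted as within 2-fold, 5 have only a bound (Cdc6, Bub1, Kif11, Kif20a and Ccne2), so a larger difference was not detectable there.

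Detection differed in the same direction. On the resident array, 44 of the 55 genes were above the floor and 28 were above a stricter one of 174 (the 99th percentile of the same silent families). On the elicited array the counts were 53 and 45. These counts use the chosen probe set of each gene; with any probe set counted, 46 genes exceeded the floor on the resident array and the other 3 counts were the same. Over all genes the counts went the other way, from 10751 to 10568 at the floor and from 9011 to 8723 at the stricter one. The 21 higher members were all above 174 on the elicited array, but 14 of them were at or below it on the resident array. Of these, 6 were not above 92.7 on the resident array, the 95th percentile of the silent families there. Their folds are therefore less certain than those of members clearly measured on both arrays, such as Pcna, Cdt1, Cdk4, Cdk6 and Cks1b.

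**Figure D2:**
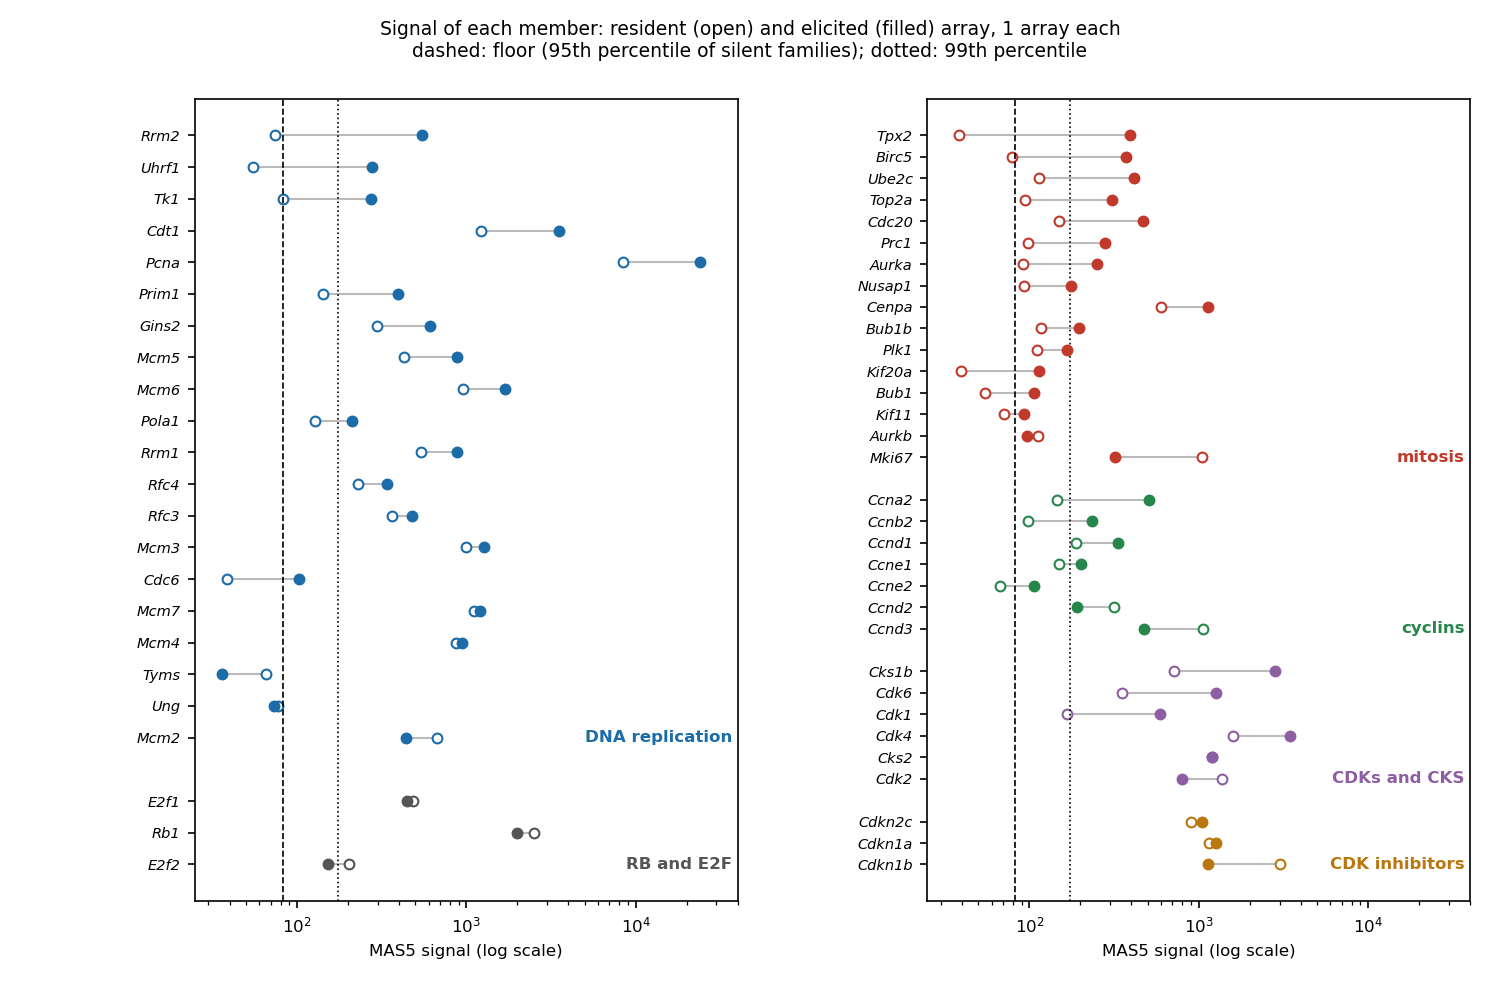
MAS5 signal (x axis, log scale) of the 55 genes, grouped by role, on the resident array (open circle) and the elicited array (filled circle), 1 array each, with no error bars. The dashed line is the floor of 82.2 and the dotted line the stricter floor of 174. Filled circles lie right of open ones for most genes of replication and mitosis, with Mki67 the clearest exception.

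Balance between higher and lower depended little on the scaling for these genes. Among members past the 2-fold threshold, 87.5% were higher in elicited cells as deposited (21 and 3), 93.3% with equal medians (28 and 2), 93.3% with quantile normalization (28 and 2), 92.9% with loess (26 and 2) and 77.3% when scaled on spiked hybridisation controls (17 and 5). The same shares over all genes were 40.5%, 65.7%, 57.9%, 50.7% and 18.2%. These scalings shifted the median of all genes by 0.27, 0.19, 0.10 and -0.34 on the log2 scale. Relative to the median of all genes, the median of the members was 0.76 as deposited and between 0.63 and 1.01 over the 13 alternatives.

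Replication factors and enzymes that supply nucleotides were higher on the elicited array in 8 of 18 measured genes (44.4%). None was lower at 2-fold, and the median log2 ratio was 0.78. Background shares over all genes were 8.04% higher and 11.8% lower. Pcna, the sliding clamp that tethers DNA polymerases, had a signal of 8466 in resident and 23888 in elicited cells, 2.82-fold higher. Cdt1, which loads the replicative helicase onto origins, had 1215 and 3549 (2.92-fold higher), and its second probe set above the floor had a log2 ratio of 1.27. Prim1, the catalytic primase subunit, had 142 and 394 (2.77-fold higher). Gins2, a subunit of the active helicase complex, had 295 and 610.0 on its main probe set and a log2 ratio of 1.81 on the other.

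Several other members supply deoxynucleotides or maintain DNA methylation. Rrm2, the cell cycle regulated subunit of ribonucleotide reductase, had signals of 74.2 and 551 and was at least 6.70-fold higher. Its other probe sets had 38.4 and 315, and 80.5 and 164, so the resident signal was below the floor on each of the 3. Without the less specific probe sets its log2 ratio fell to a bound of 1.00, from 2.74. Rrm1, the large subunit of the same enzyme, had 541 and 886, a log2 ratio of 0.71, and 1.30 on its other probe set above the floor. Tk1, the S-phase thymidine kinase, had 83.0 and 275 (3.31-fold higher), with the resident signal just above the floor. Uhrf1, which guides maintenance methylation to new DNA, had 55.1 and 279 and was at least 3.40-fold higher. The 4 probe sets that name Tyms alone were below the floor on both arrays.

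Subunits of the MCM2-7 helicase, which unwinds DNA at the fork, differed less. Mcm5 had 430.3 and 881 (2.05-fold higher) and Mcm6 had 958 and 1702 (1.78-fold). The value of Mcm5 rests on 1 probe set: its other one above the floor had 145 and 212, a log2 ratio of 0.54. The log2 ratio of Mcm5 was 0.54 without the less specific probe sets (_s_at and _x_at), 0.79 as the mean over probe sets and 0.66 with hybridisation controls. Mcm3, Mcm4 and Mcm7 had log2 ratios of 0.35, 0.11 and 0.13. These turned to -0.02, -0.26 and -0.24 when the arrays were scaled on hybridisation controls. Mcm3 also read -0.15 without the less specific probe sets. Mcm2 was the lowest of the role (672 and 441), but its 2 probe sets disagreed, with log2 ratios of -0.61 and 0.84. The 5 probe sets of Mcm3 ran from -0.78 to 0.82. Rfc3 and Rfc4, of the clamp loader, and Pola1, the catalytic subunit of polymerase alpha, had log2 ratios from 0.39 to 0.73. Cdc6, the partner of Cdt1 at origins, had signals of 38.6 and 103, a bound of at least 1.26-fold.

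Mitotic genes were higher on the elicited array in 7 of 16 genes and lower at 2-fold in 1, with a median log2 ratio of 0.91. Shares over all genes were 8.04% higher and 11.8% lower. On the chosen probe sets, elicited signals exceeded the floor for all 16 and resident signals for 11, and at 174 the counts were 11 and 2. With any probe set counted, resident signals exceeded the floor for 13, Kif11 and Tpx2 being added, and the count at 174 stayed at 2. Tpx2, an activator of Aurora A at the spindle, had 38.5 and 395 and was at least 4.81-fold higher. Its size rests on 1 of its 4 probe sets, whose log2 ratios ran from -0.50 to 2.26, and 2 of them exceeded the floor only on the resident array. Birc5, survivin of the chromosomal passenger complex, had 79.0 and 373 (at least 4.54-fold higher). Ube2c, the ubiquitin-conjugating enzyme of the anaphase-promoting complex, had 114 and 416 (3.65-fold higher). Cdc20, activator of the same complex, had 149 and 471 (3.16-fold higher) and a log2 ratio of 1.78 on its other probe set above the floor.

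Top2a, the topoisomerase that untangles sister chromatids, had 94.3 and 307 (3.26-fold higher). Prc1, which bundles midzone microtubules, had 98.3 and 279 (2.84-fold), and Aurka, the Aurora A kinase, had 91.9 and 250.2 (2.72-fold). These 3 resident signals lay between 91.9 and 98.3, close to the floor. Cenpa, the histone H3 variant of centromeres, was measured well on both arrays with 603 and 1132 (1.88-fold), although a second probe set read -0.86. Nusap1, Bub1b and Plk1, for the spindle, the checkpoint and mitotic entry, had log2 ratios of 0.92, 0.75 and 0.58. Resident signals of Bub1 and Kif20a did not exceed the floor, so their ratios are bounds. The 3 probe sets of Kif11 disagreed, from -0.58 (122.9 and 50.6) to 0.49 (37.5 and 115). Aurkb, the Aurora B kinase, had 113 and 96.7, a log2 ratio of -0.22 that turned to 0.30 at the highest under other processing.

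Mki67, the gene of the Ki-67 proliferation antigen that coats mitotic chromosomes, went the other way. Resident cells gave a signal of 1039.65 and elicited cells 322, which is 3.23-fold lower. It was above 174 on both arrays and was read by 1 probe set. Its log2 ratio lay between -2.06 and -1.38 over 11 alternatives. Mki67 and Top2a, both used as proliferation markers, thus pointed in opposite directions on this pair of arrays. The promoter of Mki67 shown above holds CHR letters like those of Cdc20 and Ube2c.

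The order of replication and mitotic genes depended on the choice of probe sets. The difference of their medians was -0.13 (replication minus mitosis), and no error can be given for it. It turned to 0.31 when each gene was the mean over its probe sets and to 0.066 when each was its probe set of largest ratio.

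**Figure D3:**
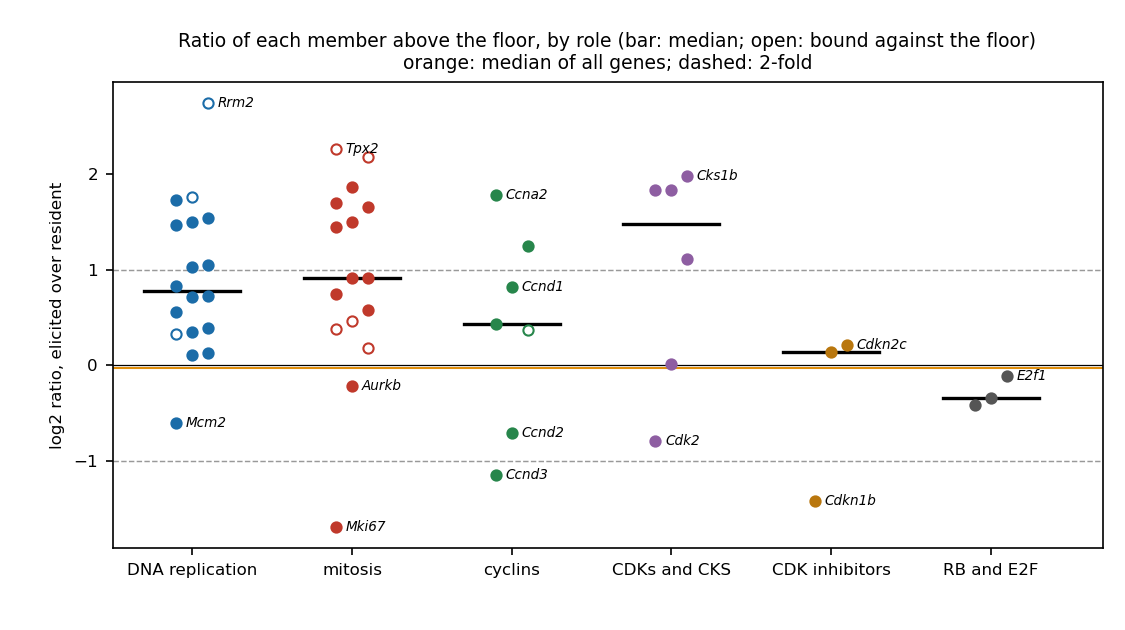
log2 ratio of elicited over resident signal (y axis) for the 53 genes above the floor, by role (x axis). Filled points were above the floor on both arrays, open points are bounds, bars are medians, and the orange line is the median of all genes (-0.03). The bars of replication (0.78) and mitosis (0.91) lie above that line, that of RB and E2F genes (-0.34) below it, and Mki67, Cdkn1b and Ccnd3 lie under the lower 2-fold line.

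Cyclins split by type. The S-phase and mitotic cyclins Ccna2 (146 and 506, 3.45-fold) and Ccnb2 (98.2 and 233, 2.37-fold) were higher on the elicited array, and both probe sets of Ccna2 were at least 3.45-fold. The E cyclins, partners of CDK2 at the start of S phase, were dim. Ccne1 had 149.9 and 203, within 2-fold, and Ccne2 had 66.9 and 106, a bound of at least 1.29-fold higher.

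The D cyclins, which link growth factor signals to the cycle, pointed in different directions. Ccnd1 had 188 and 332, a log2 ratio of 0.82, and the 3 probe sets for it ran from 0.82 to 1.29. Ccnd2 had 314 and 192, and its 5 probe sets above the floor ran from -1.07 to -0.23. Ccnd3 had 1058 and 477, 2.22-fold lower, and its other probe set above the floor read 373 and 5.39. Every probe set above the floor was thus higher for Ccnd1 and lower for Ccnd2 and Ccnd3. No alternative turned a sign: Ccnd1 lay between 0.45 and 1.29, Ccnd2 between -1.08 and -0.22 and Ccnd3 between -2.18 and -0.84. Over the 7 measured cyclins the median log2 ratio was 0.44.

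Of the catalytic partners and CKS subunits, 4 of 6 were at least 2-fold higher, against 8.04% of all genes. Cdk4, the D cyclin kinase, had 1589.9 and 3448 (2.17-fold higher), and its 3 probe sets agreed within log2 ratios of 1.12 to 1.20. Cdk6, its close relative, had 354 and 1261 (3.56-fold), with 1.96 on its second probe set above the floor. Cdk1, the mitotic kinase, had 166 and 593 (3.56-fold). Cdk2, the kinase of cyclins E and A, was the exception with 1381 and 797, a log2 ratio of -0.79. Cks1b, a small CDK-binding subunit that also helps mark p27 for destruction, had 716 and 2829 (3.95-fold). Its paralogue Cks2 had 1192 and 1201. The 6 genes had a median log2 ratio of 1.47.

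CDK inhibitors differed among themselves. Cdkn1b, which encodes p27, had 3029 and 1135, 2.67-fold lower, and its dimmer probe set had a log2 ratio of -0.55. Cdkn1a, which encodes p21, had 1156 and 1269 with log2 ratios of 0.14 and 0.49 on its 2 probe sets. Cdkn2c, which encodes p18, had 903 and 1043. The median of the 3 was 0.14, and the median of the cyclins exceeded it by 0.30. That difference lay between 0.18 and 0.69 over the 13 alternatives.

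E2f1 and E2f2, activators of replication genes, and Rb1, their repressor, lay within 2-fold, and their median log2 ratio was -0.34. Rb1 had 2524 and 1995, E2f1 484 and 447, and E2f2 202 and 152. The probe sets of E2f1 disagreed in sign (-0.11 and 0.16), and E2f2 reached 0.14 under another processing.

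**Figure D4:**
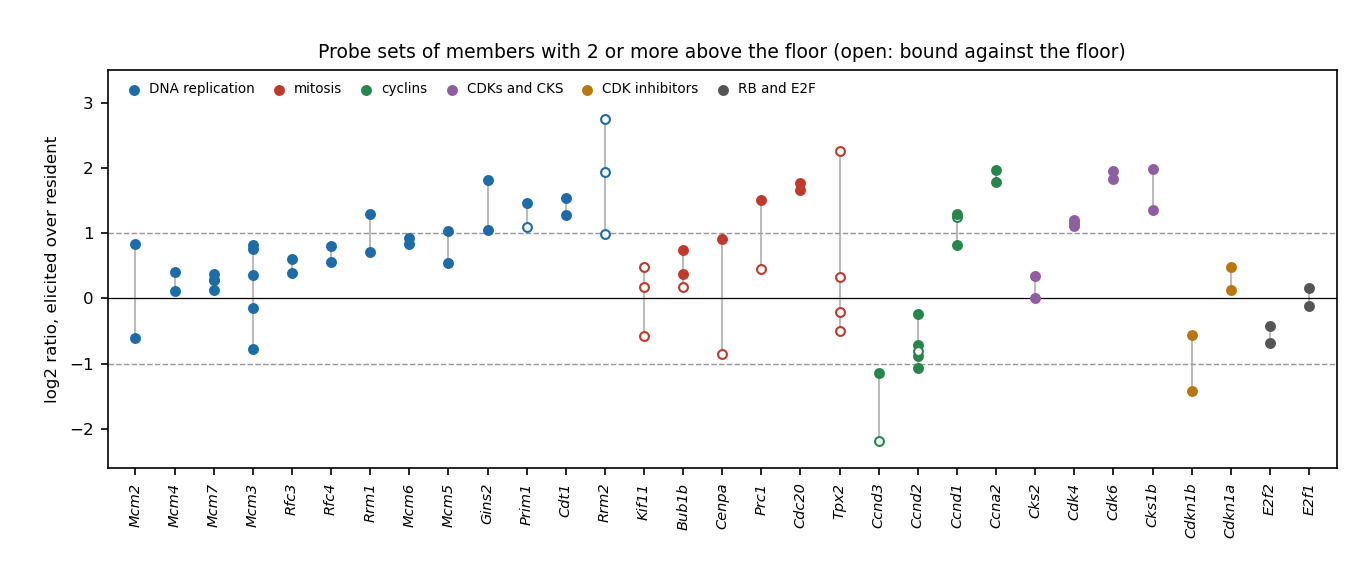
log2 ratio of elicited over resident signal (y axis) for each probe set above the floor, for the 31 genes with at least 2 such probe sets (x axis), coloured by role; open points are bounds against the floor and grey lines join probe sets of 1 gene. All probe sets of a gene point 1 way in 25 of the 31 genes; Mcm2, Mcm3, Kif11, Cenpa, Tpx2 and E2f1 are the others.

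Probe sets of the same gene thus agreed in direction for 25 of 31 members, and the same share over all genes was not computed. Of the 24 members at least 2-fold apart, all 24 kept their sign in every alternative that measured them. This was a weak check, because they were picked for large ratios. Changes of floor cannot turn a sign, and the scalings shifted the median of all genes only by -0.34 to 0.27. A choice among probe sets leaves members with no further probe set above the floor unchanged. The same share over all genes at least 2-fold apart was not computed. Of the 24 members, 11 stayed at least 2-fold apart in all alternatives. These were Birc5, Ccna2, Cdc20, Cdk1, Cdk6, Cdt1, Cks1b, Pcna, Prim1 and Ube2c, all higher, and Mki67, lower.

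**Figure D5:**
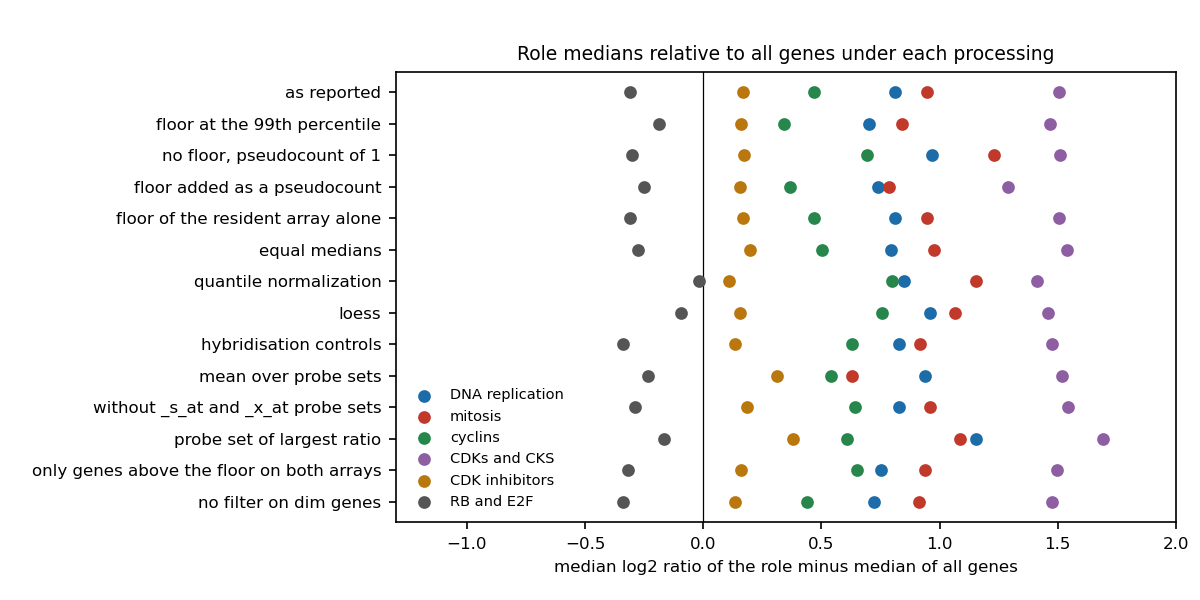
Median log2 ratio of each role minus the median of all genes (x axis) as reported and under 13 alternatives (y axis). CDKs and CKS subunits lie highest and RB and E2F genes lowest throughout, and replication and mitosis change places when all probe sets or the most different probe set are used.

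The rest of the pathway was read from wider gene lists. Of 40 measured further replication genes, 7 (17.5%) were higher by 2-fold or more and 0 lower, with a median of 0.34. Over all genes, 8.04% were higher and 11.8% lower. Chaf1b, of the chromatin assembly factor, had 92.5 and 313 (3.38-fold), Orc6, of the origin recognition complex, 183 and 526 (2.88-fold), and Cdc45, a helicase cofactor, at least 2.80-fold from 45.8 to 230.2. Dut, which removes dUTP, was 2.73-fold higher. Of 41 measured further mitotic genes, 11 (26.8%) were at least 2-fold higher and 1 (2.44%) lower, with a median of 0.48. The elicited array had 39 of them above the floor and the resident array 27. Only 25 were above it on both arrays, with a median of 0.31. Pbk, a mitotic kinase, was at least 4.62-fold higher, Kif22, a chromokinesin, 4.55-fold (179 and 814), Cdca8, of the passenger complex, 3.49-fold (221 and 770.4) and Spc25, of the kinetochore, 3.20-fold. The probe sets of Kif22 read 0.09 and 2.19 and those of Spc25 -0.14 and 1.68. Espl1, the protease separase, was the lower one (498 and 193, 2.58-fold).

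Further inhibitors and antiproliferative genes, 10 in number, had 2 higher, 3 lower and a median of -0.60. These shares are 20% and 30%, against 8.04% and 11.8% over all genes. Gadd45b, a stress-induced gene, had 526 and 5432 (10.3-fold higher), and Cdkn1c, which encodes p57, had 278 and 2649 (9.54-fold higher). Cdkn2b, which encodes p15, had 827 and 167 (4.96-fold lower), and Btg2 had 1259 and 403 (3.13-fold lower). Among 13 measured relatives of RB and E2F, none was 2-fold apart (median -0.08), and of 9 further cyclins and CDKs Ccnt2 alone was (2.99-fold lower). Over all genes, 80.2% were within 2-fold. The 6 measured housekeeping genes were all within 2-fold, from -0.23 for Tbp to 0.56 for Hprt.

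Both arrays carried the macrophage label: all 8 macrophage markers were above the floor on both, with summed signals of 141135 and 137236. Of these 8, Itgam (2.99-fold) and Cd14 (2.73-fold) were lower in elicited cells and Fcgr1 (2.55-fold) was higher. Markers of other cells differed between them. For comparison, 8.04% of all genes were higher and 11.8% lower by 2-fold or more. Among 10 genes that mark B cells, elicited signals were lower for 8 (summed signal 25156 and 4977), with Cd79a, Cr2 and Fcer2a below the floor there. Cd22 (2269 and 4078) and Pax5 (141 and 159) were not lower, and Cd22 made up most of the elicited sum. Of 13 measured mesothelial and fibroblast markers, 9 were at least 2-fold higher (summed 825 and 16801), and Msln stayed under the floor in both samples. Only 4 of the 13 were above the floor on both arrays. The others passed it on the elicited array alone and could only read higher. The other lists were lower in most measured members: T cells 3 of 5 (summed 1333 and 522, Cd3e below the floor on both), dendritic cells 4 of 5 (1786 and 372, Flt3 and Xcr1 below it on both) and mast cells 5 of 6 (2630.3 and 154, Kit and Cpa3 below it on the elicited array). No dendritic or mast cell marker was above the floor on both arrays by its chosen probe set. Those measured passed it on the resident array alone and could only read lower. The same holds for the T cell markers except Cd28. Among the T cell markers, Cd28 was 2.87-fold higher (112 and 321) and made up most of the elicited sum. Of 6 measured neutrophil markers, 4 were lower by 2-fold or more (14068 and 8953, Mpo and Elane below the floor on both), and erythroid markers in 2 of 3 (4083 and 6397, Klf1 below it on both). Tfrc made up most of both erythroid sums, with 3592 and 6097, and was not lower. The part of these cells in the replication, cyclin and inhibitor results was not tested. In RNA from mixed cells, fewer cells of a type and less RNA per cell cannot be told apart, and the same holds for more cycling cells and more RNA per cycling cell.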

How the data were processed

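RNA of 2 macrophage samples was measured on 1 Affymetrix 3' array each. The deposited values are linear signal intensities for 45101 probe sets per array, which the authors computed by the MAS5 algorithm according to the submitters' processing notes. Its version and its scaling target are not stated in the labels. The mean after leaving out the lowest and highest 2% was 500.003 and 500.004, so both arrays share a trimmed mean, and no further scaling was applied.

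Genes were named from the platform annotation and brought up to date through the RefSeq table of GRCm38.p6 by gene ID (34754 of 34958 probe sets with 1 gene matched). Probe sets of several genes (932) or none (9211) stayed out. The floor used 252 values of 126 probe sets of silent families. The probe-set SD came from 4465 genes. Every member may be named; values are given for members at least 2-fold apart, the extremes of each role, markers of special interest and members whose probe sets disagree, and for up to 4 genes of each other list. Members and lists were chosen with earlier results of these data known. With 1 array per group no test was run. Calculations were tested on simulated data, with changes planted only in genes well above the floor. Recovery of changes in dimmer genes was not checked. Tools were Python 3.11.15, numpy 2.4.6, pandas 2.3.3, scipy 1.17.1, statsmodels 0.14.6 and matplotlib 3.10.9.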

Additional observations from a re-analysis of the deposited data

Results flagged for a closer look

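Thymidylate synthase was read by a probe set that names both Tyms and its pseudogene Tyms-ps and therefore stayed out of the results above. It read 108 in resident and 465 in elicited cells, a 4.31-fold higher signal. The 4 probe sets naming Tyms alone were below the floor on both arrays. Which of both genes gave this signal was not tested.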

How the results depend on the processing

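With 1 array per group, no value has a replicate error and the number of arrays limits the precision. No paired analysis was possible because each group has 1 array. The 13 alternatives changed floor, scaling, choice of probe sets or filter. Members at least 2-fold higher numbered 21, and 15 to 28 over the alternatives. Members at least 2-fold lower numbered 3, and 5 with scaling on hybridisation controls. The same scaling turned the median of the CDK inhibitors from 0.14 to -0.24. Quantile normalization moved the median of the cyclins from 0.44 to 0.96. The replication minus mitosis difference of -0.13 turned to 0.31 with the mean over probe sets and to 0.066 with the probe set of largest ratio. The cause of these changes was not tested. Over single members, 523 alternative values moved by less than the probe-set SD and 48 by more. Some of the 523 could not move, because a choice among probe sets leaves a gene with 1 probe set unchanged. Members at least 2-fold apart were picked for large ratios and had little room to change sign. None of them did, but several smaller ratios did. E2f1 kept its sign in 6 of 11 alternatives, Mcm2 in 8 of 11 and Aurkb in 7 of 9. Over all genes, 924 were higher and 1357 lower; these became 1701 and 887 with equal medians, 505 and 2273 with hybridisation controls, and 1050 and 2202 with the probe set of largest ratio. Resident signals near the background limit the folds of 14 of the 21 higher members.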

Other observations

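Targets of the tumour suppressor p53, which include Cdkn1a, had no common direction. Of 11 measured genes besides Cdkn1a, 2 were at least 2-fold higher and 1 lower on the elicited array (over all genes, 8.04% and 11.8%), with a median log2 ratio of 0.04. Plk2, a kinase of the stress response, had signals of 1709 and 8340.3 (4.88-fold higher), and Phlda3, an inhibitor of AKT, had 478 and 981 (2.05-fold higher). Trp53inp1 had 3764 and 1837 (2.05-fold lower), and Mdm2, which degrades p53, had 1394 and 1439.

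Regulators known to set macrophage proliferation had few members past the threshold, as did all genes. Of 11 measured genes, 9 were within 2-fold, against 80.2% of all genes, and 2 were lower on the elicited array, with a median of -0.20. Klf2, a factor linked to quiescence, had 2346 and 544 (4.31-fold lower), and Bhlhe41 had 193 and 80.9 (at least 2.35-fold lower). Myc, a driver of cell growth, had 442 and 507, and Csf1r, the receptor of the growth factor CSF1, had 36845 and 32074.5 on its brightest probe set, while its 3 probe sets ran from -1.76 to -0.20. Il4ra, the receptor chain for interleukin-4, had 584 and 293 (1.99-fold lower), and a log2 ratio of -1.68 on its other probe set above the floor. The 6 probe sets of Maf, a factor that limits self-renewal, ran from -1.25 to 0.78.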
